A study of Mus musculus with 8 samples.

Results

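The 5′ arm miRNAs of 3 gene clusters, mmu-miR-15a-5p, mmu-miR-15b-5p, mmu-miR-16-5p, mmu-miR-195a-5p and mmu-miR-497a-5p (mmu, mouse, is left out from here on), were followed through 8 small RNA libraries of 2 mouse cell lines. They were chosen by name, as the miRNAs with the cell-cycle seed that lie outside the miR-322 cluster. They are 5 of the 1978 miRNAs in the count tables, 5 of the 605 in the ATF4 table and 5 of the 696 in the P19 table, and all 5 had reads in all 8 libraries.

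The study asked how PERK, the endoplasmic reticulum stress sensor of the unfolded protein response, acts on miRNAs while myoblasts differentiate. C2C12 is a mouse skeletal myoblast line that fuses into myotubes in differentiation medium, and P19 is a mouse embryonal carcinoma line. C2C12 cells with a control hairpin (shNC, negative control cells) or a hairpin against Perk (shPerk, PERK knockdown cells) were taken at day 0 and at day 3 of differentiation. Further libraries came from C2C12 cells with the empty vector, C2C12 cells with ATF4 overexpression, and P19 cells with shNC or shPerk, with no day in the labels of these 4. The paper describes the ATF4-overexpressing cells and their controls as proliferating in growth medium, without induced differentiation. ATF4 is a transcription factor that acts downstream of PERK. The hairpins were cloned in the pLKO.1 backbone, and stable C2C12 lines were made by lentiviral infection and puromycin selection; how the negative control cells were made is not given in the sources used here. Each condition was 1 library, so no difference between conditions had a replicate check and no p-value is given. Messenger RNA was not measured here, so the knockdown of Perk and the overexpression of ATF4 could not be checked in these libraries.

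The miR-15/16 family is known for targeting cyclins, cyclin-dependent kinases and BCL2, and for slowing the cell cycle at the step from G1 to S phase. A miRNA finds most of its targets by pairing of its seed, bases 2 to 8, and miRNAs with 1 seed are therefore expected to share many targets. miR-15a and miR-16-1 are lost in many chronic lymphocytic leukaemias, and miR-195 and miR-497 are known to restrain the proliferation of heart and skeletal muscle cells.

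The 5 mature sequences are shown because they hold the shared feature and the differences on which read assignment depends. They are given 5′ to 3′ from RefSeq (GRCm38), with the seed in capitals, and miR-322-5p is added as the other expressed miRNA with the same seed.
miR-15a-5p: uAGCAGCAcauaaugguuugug
miR-15b-5p: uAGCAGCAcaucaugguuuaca
miR-497a-5p: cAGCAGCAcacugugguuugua
miR-16-5p: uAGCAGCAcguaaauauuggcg
miR-195a-5p: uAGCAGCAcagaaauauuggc
miR-322-5p: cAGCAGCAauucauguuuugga
Of 1679 mature mouse miRNAs in the reference, 10 carry this seed. Behind the seed the members fall into 2 kinds. miR-16-5p and miR-195a-5p were identical at 19 of 21 bases and differed by G10A and U11G (base of miR-16-5p, position from 1 at the 5′ end, base of miR-195a-5p). miR-15a-5p matched miR-15b-5p at 18 of 22 bases and miR-497a-5p at 17 of 22. miR-195a-5p and miR-497a-5p, which come from 1 gene cluster, matched at only 12 of 21 bases. Each cluster thus holds 1 miRNA of each kind.

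The 3 clusters lie on chromosomes 14, 3 and 11 (GRCm38). Mir15a, at chr14:61632027-61632110 on the minus strand, is in an intron of the long non-coding gene Dleu2, and Mir16-1, at chr14:61631880-61631972, overlaps an exon of a Dleu2 transcript, 54 bases away. Mir15b, at chr3:69009772-69009835, and Mir16-2, at chr3:69009902-69009996, are 66 bases apart in introns of Smc4, which encodes a condensin subunit. Mir497, at chr11:70234717-70234800, and Mir195a, at chr11:70235042-70235135, are 241 bases apart on the plus strand. Mir195a overlaps no other annotated gene, and Mir497 overlaps Mir497b on the opposite strand. The mature miR-16-5p is the same from both of its genes, so its reads cannot be divided between chromosomes 14 and 3. The 3p arms of these genes differ, and they serve below as a separate measurement of each hairpin:
miR-16-1-3p: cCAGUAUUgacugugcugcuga
miR-16-2-3p: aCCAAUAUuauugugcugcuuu
miR-195a-3p: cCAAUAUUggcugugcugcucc
Capitals again mark bases 2 to 8, which differ from the seed of the 5p arms. miR-16-1-3p and miR-195a-3p share most of their bases.

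The 4 C2C12 hairpin libraries held between 8800977 and 11993448 reads on miRNAs, and 3 reads, the limit that a count of 0 allows, were 0.250 to 0.341 CPM, counts per 1000000 reads on miRNAs. The ATF4 and P19 pairs were deposited as RPM, the same scale, without counts. Muscle miRNAs (miR-1a-3p, miR-133a-3p, miR-133b-3p and miR-206-3p) summed to 2467 to 88480 CPM or RPM in the 6 C2C12 libraries and to 34.5 and 96.9 in P19 cells, where 3 of 4 were listed. The 10 embryonic miRNAs, such as miR-294-3p and miR-302a-3p, summed to 213276 and 445476 RPM in P19 cells and to at most 0.707 CPM in the C2C12 hairpin libraries.

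miR-16-5p was the most abundant member in all 8 libraries. It had 21753 reads in negative control cells and 14010 in PERK knockdown cells at day 0, and 21403 and 11988 reads at day 3, which is 1921, 1592, 1785 and 1272 CPM. In the RPM tables it stood at 1460 with the vector, 1744 with ATF4, 2749 in P19 shNC cells and 2221 in P19 shPerk cells. It ranked between 52nd and 69th of all miRNAs, and over the hairpin libraries its CPM spanned a narrower range, in fold, than that of any other member. miR-15b-5p was second in 7 libraries. Its 4 hairpin libraries held 2555 (shNC, day 0), 1745 (shPerk, day 0), 2033 (shNC, day 3) and 846 reads (shPerk, day 3), or 226, 198, 170 and 89.7 CPM. It was at 389 RPM with the vector, 357 with ATF4, and 561 and 284 in P19 shNC and shPerk cells. The exception to its place was the day 3 knockdown library, where miR-195a-5p exceeded it.

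miR-15a-5p, the partner of miR-16-1 on chromosome 14, had 422, 172, 379 and 74 reads in the hairpin libraries in the same order, or 37.3, 19.5, 31.6 and 7.85 CPM. Both knockdown libraries were below both negative control libraries. It was last of the 5 in 5 libraries, with 22.3 RPM for the vector, 27.2 for ATF4, and 32.7 and 23.6 in P19 shNC and shPerk cells.

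The chromosome 11 members were ordered otherwise. miR-195a-5p had 158 and 877 reads in shNC and shPerk cells at day 0 and 439 and 1692 at day 3, or 14.0, 99.6, 36.6 and 179 CPM. It was at 12.3 RPM with the vector, 43.0 with ATF4, and 135 and 83.7 in P19 shNC and shPerk cells. Its rank ran from 155th to 335th. miR-497a-5p had 186, 830, 344 and 532 reads in the hairpin libraries, or 16.4, 94.3, 28.7 and 56.4 CPM. Its RPM values were 16.4 with the vector and 44.1 with ATF4, and 120 and 58.1 in P19 shNC and shPerk cells. For both miRNAs, the knockdown libraries of C2C12 were above both negative control libraries, whereas in P19 cells the knockdown library was the lower on the RPM scale. On that scale most P19 miRNAs were lower in the knockdown library, with a median log2 difference of -0.63 over all 696. miR-195a-5p, at -0.69, was close to that median, and miR-497a-5p was at -1.05. Within a library these 2 neighbours could not be told apart by counting error at day 0, with ratios of miR-195a-5p to miR-497a-5p of 0.849 (95% Clopper-Pearson interval 0.683 to 1.06) in shNC and 1.06 (0.960 to 1.16) in shPerk cells.

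**Figure D1:**
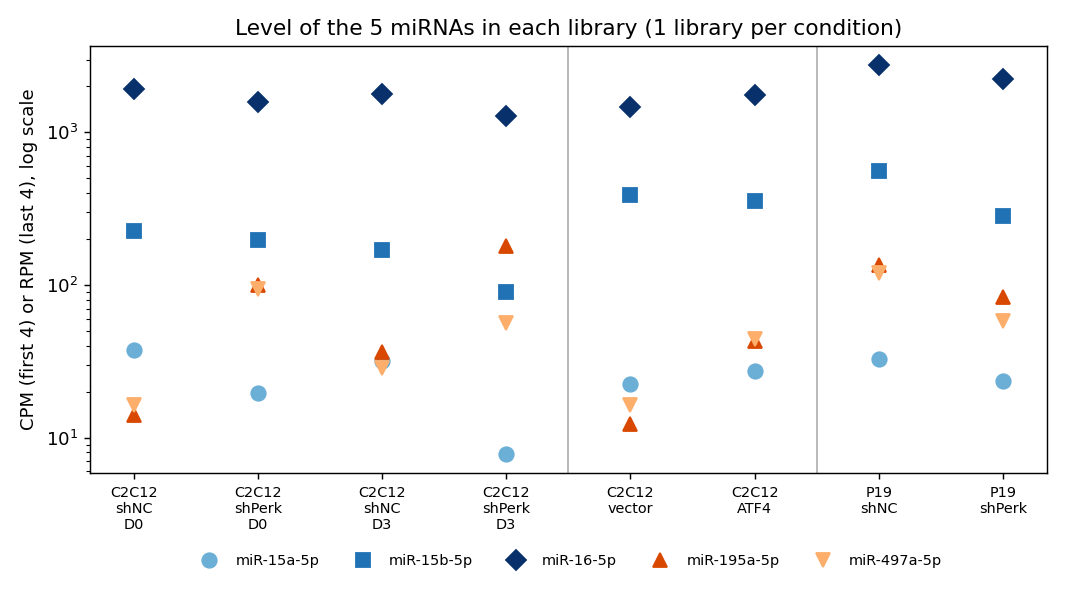
Level of each of the 5 miRNAs in each of the 8 libraries, on a log axis in CPM for the 4 C2C12 hairpin libraries and in RPM for the other 4; grey lines separate the tables. miR-16-5p is on top throughout, while miR-195a-5p runs from 14.0 to 179 CPM across the hairpin libraries.

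For the comparisons, log2 fold changes were taken with TMM scaling, which sets aside the most extreme miRNAs, and a difference of more than 1 on the log2 scale, more than 2-fold, was counted as past the fold limit. Intervals are 95% and cover counting error only, since each condition was 1 library. They treat reads as independent, and copies made by PCR are not independent molecules, so they may be too narrow even for counting error. The 4 hairpin libraries each serve in more than 1 comparison.

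PERK knockdown at day 0 went with higher miR-195a-5p and miR-497a-5p and, with TMM, the other 3 members were within the limit. miR-195a-5p was 7.96-fold higher (log2 2.99, interval 2.75 to 3.25) and miR-497a-5p was 6.40-fold higher (log2 2.68, 2.45 to 2.92). In this comparison 36.5% of 602 miRNAs were past the limit, 16.6% higher and 19.9% lower, against 2 higher members of 5. miR-195a-5p lay above 93.7% of all miRNAs compared and miR-497a-5p above 92.7%. miR-15a-5p was at log2 -0.77 (-1.04 to -0.51), and at -1.003, just past the limit, with upper-quartile scaling. miR-15b-5p was at -0.03 (-0.12 to 0.06) and miR-16-5p at -0.11 (-0.14 to -0.08). The median of the 5 members was -0.03, which was also the median of all miRNAs.

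At day 3 the same direction was seen for miR-195a-5p, and miR-15a-5p passed the limit on the other side. miR-195a-5p was 5.89-fold higher in PERK knockdown cells (log2 2.56, 2.41 to 2.71). miR-497a-5p was 2.36-fold higher (log2 1.24, 1.04 to 1.44), and with scaling to the total it stood at 0.98, inside the limit. miR-15a-5p was 3.35-fold lower (log2 -1.74, -2.12 to -1.38). Thus 2 members were higher and 1 was lower, where 45.0% of 575 miRNAs were past the limit, 21.2% higher and 23.8% lower. miR-15b-5p was at -0.65 (-0.77 to -0.54) and miR-16-5p at -0.22 (-0.26 to -0.19), and the members' median of -0.22 compared with -0.05 over all miRNAs.

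The knockdown difference itself was smaller at day 3 than at day 0 for miR-497a-5p, by 1.44 on the log2 scale (day 3 minus day 0 -1.44, interval -1.74 to -1.14). For miR-195a-5p the change was -0.43 (-0.72 to -0.15). miR-15a-5p moved by -0.97 (-1.41 to -0.53), miR-15b-5p by -0.62 (-0.77 to -0.48) and miR-16-5p by -0.11 (-0.16 to -0.07). These values are with TMM scaling, and the intervals again hold counting error alone. The same change was not taken over all miRNAs, so no share stands beside the members' values.

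Markers of other cell types moved with the knockdown in C2C12. The 5 haematopoietic miRNAs summed to 11.7 and 10.6 CPM in shNC cells at day 0 and day 3 and to 351 and 122 CPM in shPerk cells. Most of this was miR-142a-3p, with 2.47 and 5.00 CPM in shNC and 225 and 70.5 CPM in shPerk cells, and miR-142a-5p, while miR-223-3p, a defining myeloid miRNA, was at 0 in 3 libraries and at 0.106 CPM in the day 3 knockdown library. Of 3 neural miRNAs, miR-9-5p was at 173 and 551 CPM in shNC and 2641 and 4044 CPM in shPerk cells, and miR-124-3p was at 0 in all 4 libraries. The muscle sum was 19165 and 88480 CPM in shNC and 3839 and 24312 CPM in shPerk cells. The part of these differences in the values of miR-195a-5p and miR-497a-5p was not tested, and a change in the mix of cells and a change within cells cannot be told apart in bulk RNA.

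**Figure D2:**
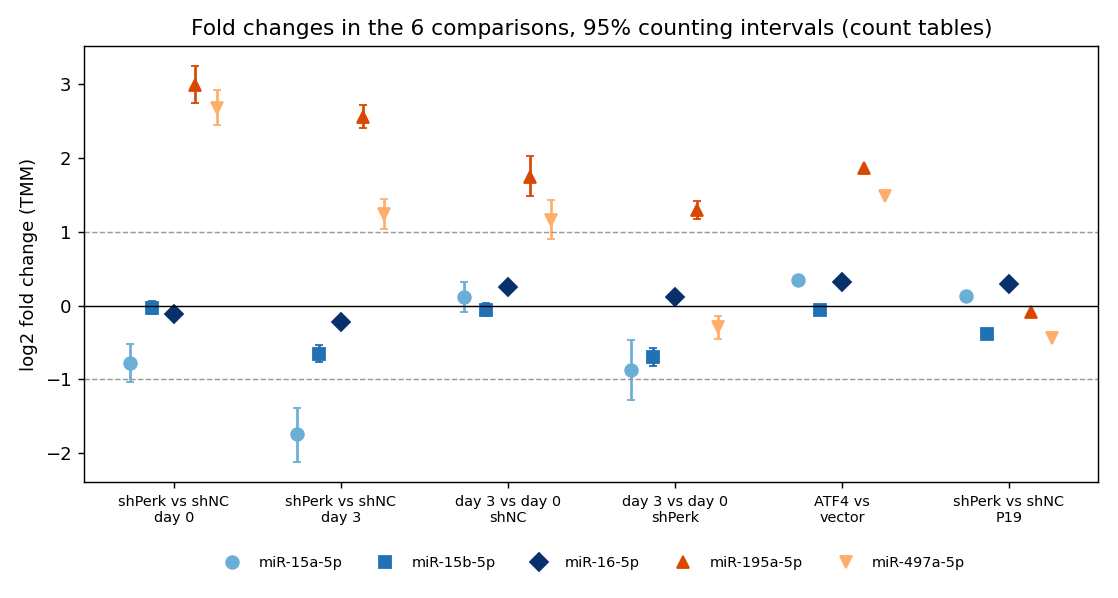
Log2 fold change (TMM scaling) of the 5 miRNAs in the 6 comparisons; bars are 95% counting intervals, drawn where counts were deposited, and dashed lines mark the fold limit at 1 and -1. miR-195a-5p lies above the upper line in 5 comparisons and at -0.09 in P19 cells.

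Differentiation of the negative control cells also went with more miR-195a-5p and miR-497a-5p. From day 0 to day 3, miR-195a-5p was 3.36-fold higher (log2 1.75, 1.48 to 2.02) and miR-497a-5p 2.24-fold higher (log2 1.16, 0.90 to 1.43, and 0.80 with scaling to the total). These were 2 of 5 members, where 29.0% of 593 miRNAs were past the limit, 15.3% higher and 13.7% lower. miR-15a-5p (0.12), miR-15b-5p (-0.06) and miR-16-5p (0.25) stayed within it, but miR-15a-5p and miR-16-5p took negative values of -0.24 and -0.11 with scaling to the total. The muscle sum of these 2 libraries was 19165 CPM at day 0 and 88480 CPM at day 3.

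In PERK knockdown cells the step from day 0 to day 3 put miR-195a-5p alone of the 5 members past the limit with TMM. It was 2.45-fold higher at day 3 (log2 1.30, 1.18 to 1.41), but 0.85 with scaling to the total. This was 1 member of 5, beside 33.9% of 573 miRNAs past the limit, 18.5% higher and 15.4% lower. miR-497a-5p was at -0.29 (-0.45 to -0.14), on the other side of 0 from its value in negative control cells. miR-15a-5p was at -0.87 and miR-15b-5p at -0.70 with TMM, and at -1.31 and -1.14 with scaling to the total, past the limit. miR-16-5p was at 0.12 with TMM and at -0.32 with the total, so its direction depended on the scaling. The members' median was -0.29 in knockdown cells, with 0.04 over all miRNAs, and 0.25 in negative control cells, with 0.05 over all. Scaling to the total moved the median of all miRNAs to -0.40 and -0.30 in the knockdown and the control cells, and to -0.19 and -0.32 in the knockdown comparisons at day 0 and day 3.

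The ratio of the 2 chromosome 11 miRNAs needs no scaling between libraries. At day 3 miR-195a-5p exceeded miR-497a-5p 1.28-fold (1.11 to 1.47) in negative control cells and 3.18-fold (2.88 to 3.51) in knockdown cells, and these intervals did not overlap with each other. The ratio was 0.748 with the vector, 0.974 with ATF4, and 1.12 and 1.44 in P19 shNC and shPerk cells. The knockdown library at day 3 thus had the highest ratio of the 8 libraries.

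ATF4 overexpression went with the same 2 members. miR-195a-5p was 3.63-fold higher than with the vector (log2 1.86) and miR-497a-5p was 2.79-fold higher (log2 1.48). From the size of 1 read in the RPM values, they rested on about 130 and 523 reads for miR-195a-5p and about 174 and 537 for miR-497a-5p. Among 605 miRNAs 22.3% were past the limit, 14.0% higher and 8.26% lower, and miR-195a-5p lay above 96.2% of them. miR-15a-5p was at 0.35, miR-15b-5p at -0.06 and miR-16-5p at 0.32. With upper-quartile scaling miR-15a-5p and miR-16-5p took -0.03 and -0.06, so their direction depended on the scaling. The members' median was 0.35, with 0.00 over all miRNAs, and upper-quartile scaling moved the latter to -0.38. The haematopoietic sum was 79.5 RPM with the vector and 53.2 with ATF4, and the 1 neural marker listed, miR-9-5p, was at 76.0 and 236 RPM. The muscle sum was 2467 and 3790 RPM. The part of these in the 2 members' values was not tested.

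In P19 cells none of the 5 members was past the limit with TMM, where 34.6% of 696 miRNAs were, 17.1% higher and 17.5% lower. miR-195a-5p was at -0.09 and miR-497a-5p at -0.45 in knockdown cells, and miR-15b-5p was at -0.38. miR-15a-5p was at 0.13 and miR-16-5p at 0.30, and both took negative values, -0.47 and -0.31, with scaling to the total. That scaling moved the median of all 696 miRNAs from -0.04 to -0.63, and miR-497a-5p to -1.05, past the limit. Beside this, the embryonic sum was 213276 RPM in shNC and 445476 RPM in shPerk cells, and miR-124-3p was at 198 and 29.6 RPM. The embryonic miRNAs did not move as 1 set. miR-302a-3p was at 17713 and 54730 RPM, miR-302b-3p at 76522 and 180818, and miR-302d-3p at 42087 and 129217. In contrast, miR-290a-5p (2860 and 742), miR-293-3p (31614 and 31218) and miR-295-3p (20160 and 18752) were lower in shPerk cells, and the others were higher.

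The make-up of the family follows from these values. The 5 members together were 0.221% of all miRNA reads in negative control cells at day 0 and 0.200% in knockdown cells, and 0.205% and 0.160% at day 3. With TMM scaling their sum differed by 0.01 (log2, interval -0.01 to 0.04) between knockdown and control cells at day 0 and by -0.09 (-0.12 to -0.06) at day 3. Within that sum, miR-195a-5p and miR-497a-5p together made up 1.37% and 9.68% at day 0 and 3.18% and 14.7% at day 3 in shNC and shPerk cells. They were 1.51% with the vector, 3.93% with ATF4, and 7.11% and 5.31% in P19 shNC and shPerk cells. With scaling to the total the sum differed by -0.14 and -0.35. The summed level was thus within the fold limit in both knockdown comparisons of C2C12 cells, and its composition differed. miR-16-5p alone was 86.8% and 79.4% of the sum at day 0 and 87.0% and 79.2% at day 3 in shNC and shPerk cells. The level of the sum therefore mostly follows that of miR-16-5p. The ratio of miR-16-5p to miR-195a-5p, which share all but 2 of 21 bases, was 138 and 15.97 at day 0 and 48.8 and 7.09 at day 3 in shNC and shPerk cells.

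**Figure D3:**
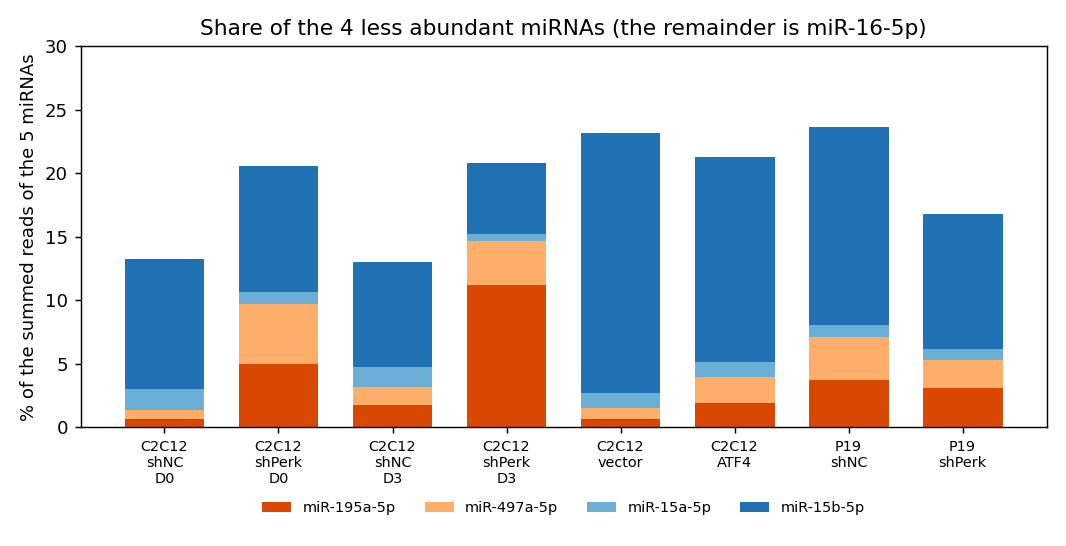
Share of the summed reads of the 5 miRNAs that fell on miR-195a-5p, miR-497a-5p, miR-15a-5p and miR-15b-5p in each library, in percent; the remainder to 100% is miR-16-5p and the axis ends at 30%. The lower pair of segments, miR-195a-5p and miR-497a-5p, is 1.37% in shNC and 9.68% in shPerk cells at day 0.

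With miR-322-5p, from the X chromosome, counted in, the picture of the sum differed at day 3. miR-322-5p had 3825 and 2035 reads in shNC and shPerk cells at day 0 and 9937 and 1918 reads at day 3. Its log2 fold change in knockdown cells was -0.39 at day 0 and -1.76 at day 3, opposite in sign to miR-195a-5p. All miRNAs with the seed together stood at 2552 and 2235 CPM at day 0 and at 2879 and 1808 CPM at day 3. The log2 difference at day 3 was -0.41 (-0.43 to -0.38) with TMM, and -0.67 with scaling to the total, the scale of these CPM values. miR-322-5p was 28.8% of the seed family in negative control cells at day 3 and 11.2% in knockdown cells. In P19 cells it was 1.96% and 1.68%, and miR-195a-5p exceeded it 1.88-fold and 1.84-fold. The other 4 miRNAs with the seed (miR-195b, miR-6342, miR-6353 and miR-6419) were at 0 reads in the 4 hairpin libraries and were not listed in the RPM tables. miR-503-5p, a neighbour of miR-322 with a seed that differs in the last base, had 4590, 1970, 10138 and 939 reads in the hairpin libraries, with log2 -0.70 at day 0 and -2.82 at day 3 in knockdown cells.

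The 3p arms give a second reading of each hairpin from other reads. miR-195a-3p had 151 and 742 reads in shNC and shPerk cells at day 0 and 184 and 693 at day 3. It was at log2 2.82 (2.56 to 3.08) in knockdown cells at day 0 and at 2.52 (2.29 to 2.77) at day 3, close to the 5p arm in both comparisons. This arm has neither the seed nor the sequence of miR-16-5p, and its knockdown values were nearly as large as those of miR-195a-5p. Its sequence is close to that of miR-16-1-3p, which had 2532 and 1246 reads in shNC and shPerk cells at day 0. How a read that matches several miRNAs was assigned is not given, and exchange of reads between these 3p arms was not tested. With ATF4 it was at 1.44, from 14.8 to 38.7 RPM, and in P19 knockdown cells at -0.04. Between day 0 and day 3 the arms parted: miR-195a-3p was at 0.56 in negative control and at 0.25 in knockdown cells, where the 5p arm was at 1.75 and 1.30. The ratio of 5p to 3p reads was 1.05 (0.832 to 1.32) and 1.18 (1.07 to 1.31) at day 0 and 2.39 (2.004 to 2.85) and 2.44 (2.23 to 2.67) at day 3 in shNC and shPerk cells. It was 0.828 with the vector, 1.11 with ATF4, and 2.52 and 2.44 in P19 shNC and shPerk cells. The intervals at day 0 and day 3 did not overlap, whereas those of shNC and shPerk cells of the same day did. The P19 values were close to those of C2C12 cells at day 3. miR-497a-3p had between 1 and 3 reads in the hairpin libraries, too few for a fold.

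On chromosome 3, miR-15b-3p had 1758, 1396, 1183 and 311 reads and miR-16-2-3p had 275, 182, 176 and 43 reads in the hairpin libraries (shNC and shPerk at day 0, then at day 3). In knockdown cells at day 3 they were at -1.31 and -1.42, both past the limit, where miR-15b-5p was at -0.65 and miR-16-5p at -0.22. At day 0 they were at 0.19 and -0.07. On chromosome 14, miR-15a-3p had 63, 45, 38 and 9 reads and was at 0.04 at day 0 and -1.46 at day 3, and miR-16-1-3p had 2532, 1246, 1173 and 469 reads and was at -0.50 and -0.71. Of the 5 partner arms with enough reads, 1 was higher and 3 were lower past the limit at day 3, beside 21.2% higher and 23.8% lower of all 575 miRNAs. The 3p arms of both miR-16 genes were thus below control at day 3, by more than the shared miR-16-5p. From day 0 to day 3 in knockdown cells, 4 partner arms were lower past the limit, beside 15.4% of 573 miRNAs. They were miR-15a-3p (-1.96), miR-15b-3p (-1.82), miR-16-1-3p (-1.06) and miR-16-2-3p (-1.73), where miR-15b-5p was at -0.70 and miR-16-5p at 0.12. In negative control cells all 5 were within the limit over the same days. Over the 3 hairpins with a 5p arm of their own, 5p and 3p took the same sign in 12 of 18 values, and the comparisons share libraries. The hairpins were not alike in this, since the arms of miR-195a matched in every comparison. Those of miR-15a differed in sign for the knockdown at day 0, differentiation of negative control cells, ATF4 and P19. The arms of miR-15b differed for the knockdown at day 0 and ATF4.

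**Figure D4:**
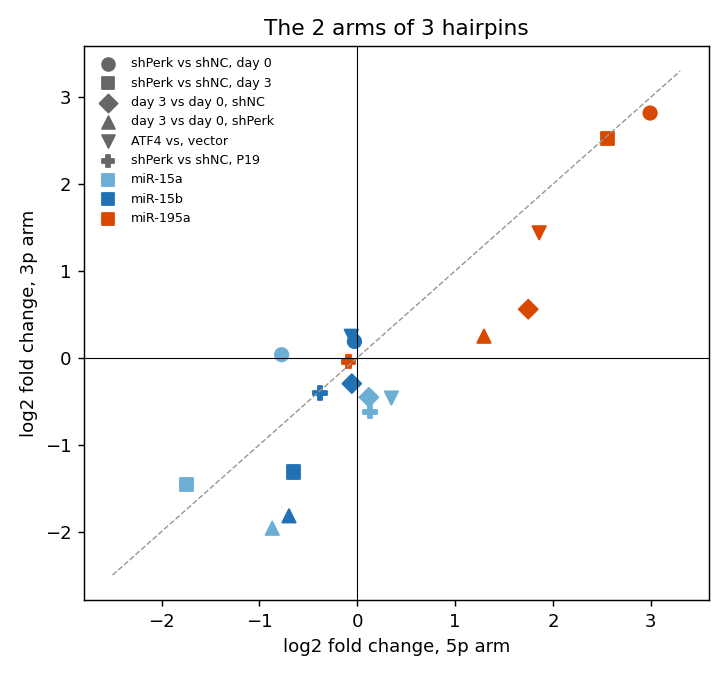
Log2 fold change of the 3p arm against that of the 5p arm for miR-15a, miR-15b and miR-195a in the 6 comparisons (shapes), with the line of equality dashed. The miR-195a points of both C2C12 knockdown comparisons lie near the line, at 2.99 and 2.82 on day 0 and at 2.56 and 2.52 on day 3.

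The pattern over the 8 libraries was compared by the root mean square difference of centred log2 values. The comparison was with 366 miRNAs outside the members, listed in all tables, whose mean was 10 CPM or RPM or more. Closest to miR-195a-5p among these was miR-218-5p (0.560), then its own 3p arm (0.622) and miR-9-3p (0.726). The member miR-497a-5p, at 0.591, was nearer to miR-195a-5p than that 3p arm. miR-218-5p stood at 221 and 2912 CPM in shNC and shPerk cells at day 0 and at 917 and 8470 CPM at day 3. Closest to miR-497a-5p was miR-195a-3p (0.458), followed by miR-181a-1-3p (0.502) and miR-3968 (0.538). miR-497a-5p was thus nearer in pattern to the 3p arm of its neighbour than to miR-195a-5p (0.591). miR-15a-5p was nearest to miR-3068-3p (0.304), miR-700-3p (0.380) and miR-324-5p (0.381). For miR-15b-5p the nearest were miR-674-5p (0.220), miR-423-3p (0.283) and miR-7a-1-3p (0.293), and for miR-16-5p they were miR-30e-3p (0.247), miR-30b-5p (0.268) and miR-148b-5p (0.305). By the same measure miR-16-5p was 1.32 from miR-195a-5p, the member it most resembles in sequence, and 0.454 from miR-15a-5p and 0.594 from miR-15b-5p, its neighbours on chromosomes 14 and 3. These distances describe 8 libraries of unlike depth and scale and carry no test.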

How the data were processed

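Small RNA was sequenced from 8 libraries, 1 per condition. The authors had linkers ligated to both RNA ends, the product amplified and gel-selected, and the reads annotated with bowtie. Its version, the miRNA release, the strand setting and how a read with several matches was assigned are not given in the sources used here. The builds in the submitters' processing notes are mm10 and GRCm38. For the 4 C2C12 hairpin libraries the deposited values are raw read counts per mature miRNA (8800977 to 11993448 reads per library). For the ATF4 and P19 pairs the authors deposited RPM, scaled to the reads on miRNAs. Low RPM values were whole multiples of 1 read in 91.4% to 94.2% of cases, so reads are given as approximate and no count test was run on them. The deposited fold changes, p-values and q-values of the authors were not used.

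Fold changes used TMM factors (edgeR 4.0.16) over the whole table and a prior count of 0.125. miRNAs with at least 1 CPM or RPM in 1 of the 2 libraries were compared. A value at 0 RPM was set to 1 RPM. Intervals are 95% Clopper-Pearson intervals, or normal intervals from 4 counts for the change of the knockdown difference. The named miRNAs are the 5 members, their partner arms (values where the mean was 1 CPM or RPM or more) and all others with the seed with miR-503-5p (values where it was 10 or more). Named as well, for each member, are the 3 most similar miRNAs outside the members (log2 of the value plus 1). Scripts were tested on simulated data. The members and lists were chosen with earlier results of these data known. Alternatives were other scalings (total, DESeq2 1.42.0, upper quartile), filters, prior counts, and a binomial test on the reads of the 2 libraries, which compares those libraries and not the conditions.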

Additional observations from a re-analysis of the deposited data

Results flagged for a closer look

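For miR-195a-5p, miR-497a-5p, miR-15a-5p and miR-16-5p the knockdown difference of C2C12 cells at both days had the opposite sign in P19 cells. How many of all miRNAs did the same was not counted, and none of these differences between lines was tested. miR-195a-5p was at log2 2.99 and 2.56 in C2C12 cells at day 0 and day 3 and at -0.0893 in P19 cells, and miR-497a-5p was at 2.68, 1.24 and -0.45. The P19 value of miR-195a-5p was near the median of all miRNAs there, -0.04, so it shows little difference in either direction. miR-15a-5p was at -0.77, -1.74 and 0.13, and its P19 value was -0.47 with scaling to the total, which ends the contrast. miR-16-5p was at -0.11, -0.22 and 0.30, within the fold limit throughout, and its P19 value was -0.31 with scaling to the total. The P19 libraries are in another table, on the RPM scale, and their day is not in the labels. Over differentiation, miR-497a-5p was at 1.16 in negative control cells and -0.29 in PERK knockdown cells. miR-15a-5p was at 0.12 and -0.87, and its value in negative control cells was -0.24 with scaling to the total. Neither difference was tested.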

How the results depend on the processing

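No paired analysis was possible because each condition is 1 library, and for the same reason no library could be left out. The number of members past the fold limit changed under 2 of the scalings. With scaling to the total it was 2 in place of 3 for the knockdown at day 3 and 1 in place of 2 for differentiation of negative control cells. For differentiation of knockdown cells it was 2 in place of 1, and in P19 cells 1 in place of 0. For the change of the knockdown difference it was 2 in place of 1, with no share over all miRNAs beside it. With upper-quartile factors it was 3 in place of 2 for the knockdown at day 0 and 2 in place of 1 for differentiation of knockdown cells. The median of ratios, the filters, the prior count of 2 and the test on reads did not change any of these counts. Of 30 member values, 7 changed sign and 7 changed side of the limit under at least 1 other scaling. Among all miRNAs with the seed, the share of miR-16-5p in the hairpin libraries was 75.3%, 71.2%, 62.0% and 70.3%. These are shNC and shPerk at day 0, then at day 3. Among the 5 members it was 86.8%, 79.4%, 87.0% and 79.2%, so the direction at day 3 depended on the sum used. Among all with the seed it was 73.3% and 73.6% with vector and ATF4, and 74.9% and 81.8% in P19 shNC and shPerk cells. In the same order, the ratio on chromosome 3 from 3p arms (miR-15b-3p to miR-16-2-3p) was 6.39, 7.67, 6.72, 7.23, 9.36, 7.94, 3.80 and 4.70, where 5p arms gave 0.0706 to 0.266. That on chromosome 14 (miR-15a-3p to miR-16-1-3p) was 0.0249, 0.0361, 0.0324, 0.0192, 0.0388, 0.0380, 0.0604 and 0.0320, where 5p arms gave 0.00617 to 0.0194; miR-16-5p sums 2 genes in both 5p ratios. The 3p ratio on chromosome 11 gave no value, since miR-497a-3p had at most 3 reads. Depth also limits miR-15a-3p, with 9 reads in knockdown cells at day 3.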

Other observations

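miR-497b, which lies opposite miR-497 on chromosome 11 and was added after its values were seen, had 92 and 18 reads in negative control and knockdown cells at day 0 and 26 and 22 reads at day 3. It was at log2 -1.83 in knockdown cells at day 0 and at 0.37 at day 3. In the RPM tables it stood at 9.36 with the vector, 7.31 with ATF4, and 8.08 and 7.85 in P19 shNC and shPerk cells. The strand setting of the counting is not given in the sources used here.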
